A study of Mus musculus with 15 samples.

Results

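The 46 mitosis and spindle genes described here encode the kinases, kinetochore and spindle proteins, chromosome proteins and degradation factors that act while a cell divides. They were chosen by gene name. Every probe that is not a control and that carries the name of a member was taken, and the gene was represented by the brightest of its probes among those whose signal stood well above background in 5 or more of the 15 arrays. All 46 genes had such a probe, among 22013 genes measured. Of the 46, 44 were well above background on every array, Kif2c on 13 arrays and Kif15 on 10.

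The arrays measured RNA of mucosa scraped from 30 mm of the most distal colon of female Balb/cJ mice, with 1 mouse per array and 5 mice in each of 3 groups. Mice of all 3 groups were 8 weeks old at the start. The water group received drinking water without dextran sodium sulfate (DSS). The labels name its compound as vehicle control although the design text gives this group water alone, so the sources differ on whether it was dosed. The DSS vehicle group drank 4% DSS, a polymer that injures the colon lining, in 3 cycles of 4 days with washouts of 3 days on plain water, beginning at 8 weeks of age, and was given the vehicle of filgotinib. The DSS filgotinib group drank DSS on the same schedule and received filgotinib, an inhibitor that prefers the Janus kinase JAK1, at 30 mg/kg once daily by gavage. The labels name no engineered allele, and the scraping can carry any cell type of the mucosa. In such bulk tissue fewer dividing cells and less RNA per dividing cell cannot be told apart. The labels do not say on which day of the last cycle or washout the mice were sampled.

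Dividing cells switch these genes on late in the cycle, in G2 and mitosis, and switch them off again in G1. Much of this timing is set at the promoter, where a short element, the cell cycle genes homology region (CHR), is bound by the DREAM complex in resting cells and by MYB-MuvB together with FOXM1 in dividing cells, often beside CCAAT boxes bound by the factor NF-Y. In the healthy colon, division is confined to the lower crypt, where stem cells and their early progeny renew the lining, and division of the crypt epithelium is one of the ways in which the mucosa heals after injury.

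Promoters are described first. Whether their motifs relate to the changes reported below was not tested. RefSeq windows of 300 bases, from 250 before to 50 after the annotated start (build GRCm38.p6), were matched for 39 of the 46 genes. Ccna2, Aurkb, Incenp, Kif20a, Tpx2, Dlgap5 and Smc4 were not matched. The windows were searched on both strands for 2 forms of the CHR, TTTGAA and TTTAAA, and for CCAAT, and matches may overlap on opposite strands. The 6 promoters below show the layout in members described later, chosen to span strong and weak responders. Capitals mark the matches (ATTGG is CCAAT read on the other strand), and all windows are given in the direction of transcription.
Cdk1: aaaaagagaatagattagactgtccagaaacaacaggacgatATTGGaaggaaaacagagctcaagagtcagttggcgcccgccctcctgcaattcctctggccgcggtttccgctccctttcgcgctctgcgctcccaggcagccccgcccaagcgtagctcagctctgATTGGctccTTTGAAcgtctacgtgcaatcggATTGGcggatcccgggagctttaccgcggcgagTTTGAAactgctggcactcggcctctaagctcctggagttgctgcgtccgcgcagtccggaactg
Ube2c: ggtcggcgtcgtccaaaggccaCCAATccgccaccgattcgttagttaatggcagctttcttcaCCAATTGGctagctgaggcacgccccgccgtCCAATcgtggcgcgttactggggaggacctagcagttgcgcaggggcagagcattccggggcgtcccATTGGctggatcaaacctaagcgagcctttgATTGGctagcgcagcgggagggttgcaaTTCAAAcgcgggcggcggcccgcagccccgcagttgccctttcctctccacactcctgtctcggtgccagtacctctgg
Cdc20: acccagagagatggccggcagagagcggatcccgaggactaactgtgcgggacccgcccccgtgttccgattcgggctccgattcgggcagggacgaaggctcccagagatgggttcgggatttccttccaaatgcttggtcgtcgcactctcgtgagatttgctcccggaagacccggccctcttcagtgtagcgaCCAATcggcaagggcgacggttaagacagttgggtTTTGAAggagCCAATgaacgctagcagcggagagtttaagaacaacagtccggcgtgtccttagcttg
Hmmr: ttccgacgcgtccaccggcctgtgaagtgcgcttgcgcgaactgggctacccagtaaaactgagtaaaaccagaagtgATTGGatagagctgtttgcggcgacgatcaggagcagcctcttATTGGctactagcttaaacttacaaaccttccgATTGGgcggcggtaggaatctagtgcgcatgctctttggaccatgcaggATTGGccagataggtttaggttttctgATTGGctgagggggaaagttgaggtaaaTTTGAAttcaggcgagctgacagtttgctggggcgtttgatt
Ccnb1: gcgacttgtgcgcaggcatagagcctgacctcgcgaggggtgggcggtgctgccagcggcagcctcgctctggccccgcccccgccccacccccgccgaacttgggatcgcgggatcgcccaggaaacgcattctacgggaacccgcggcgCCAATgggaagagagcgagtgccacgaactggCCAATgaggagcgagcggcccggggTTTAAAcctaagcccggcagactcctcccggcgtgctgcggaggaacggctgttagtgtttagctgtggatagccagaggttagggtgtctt
Ncaph: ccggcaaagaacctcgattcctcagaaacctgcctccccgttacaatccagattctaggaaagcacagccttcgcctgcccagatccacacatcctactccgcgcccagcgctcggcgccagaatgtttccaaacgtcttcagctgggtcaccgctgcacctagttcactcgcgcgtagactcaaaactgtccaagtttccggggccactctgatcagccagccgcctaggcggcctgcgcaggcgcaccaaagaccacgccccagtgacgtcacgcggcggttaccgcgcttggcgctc

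The window of Cdk1 lies at chr10:69352863-69353162 (minus strand), that of Ube2c at chr2:164769679-164769978 (plus strand) and that of Cdc20 at chr4:118437294-118437593 (minus strand). Those of Hmmr, Ccnb1 and Ncaph lie at chr11:40733388-40733687, chr13:100786437-100786736 and chr2:127133905-127134204, all on the minus strand. In Cdk1 a CHR begins 15 bases before the annotated start, and another 71 bases before it. In Cdc20 a CHR begins 18 bases before the start, between CCAAT boxes at 53 and 8 bases before it. Ube2c holds 6 CCAAT boxes, 2 of them overlapping on opposite strands, upstream of a CHR that begins 29 bases before the start. In Hmmr 5 CCAAT boxes precede a CHR 8 bases after the start. Ccnb1 carries the TTTAAA form, 42 bases before the start, and Ncaph carries none of the 3 motifs in its window.

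TTTGAA occurred in 30 of the 39 windows (76.92%), against 18.11% of all 27025 promoter windows in the reference. From 100 bases before the start on, it was found in 28 of the 39 (71.79%), against 8.08% of all windows. The CCAAT box occurred in 29 windows (74.36% against 37.92%), and 19 windows (48.72%) held it at least 2 times, against 12.16% of all. TTTAAA occurred in 9 windows (23.08% against 13.16%). Either form of the CHR was present in 33 of 39 (84.62% against 27.82%), and absent from the windows of Bub1, Mad2l1, Melk, Ncaph, Nuf2 and Nusap1. Among 41 other mitotic genes with a window, 20 (48.78%) held TTTGAA from 100 bases before the start on, and among 18 genes of G1 and S phase 1 did (5.56%). A match of letters is a description of the sequence and not evidence of binding.

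**Figure D1:**
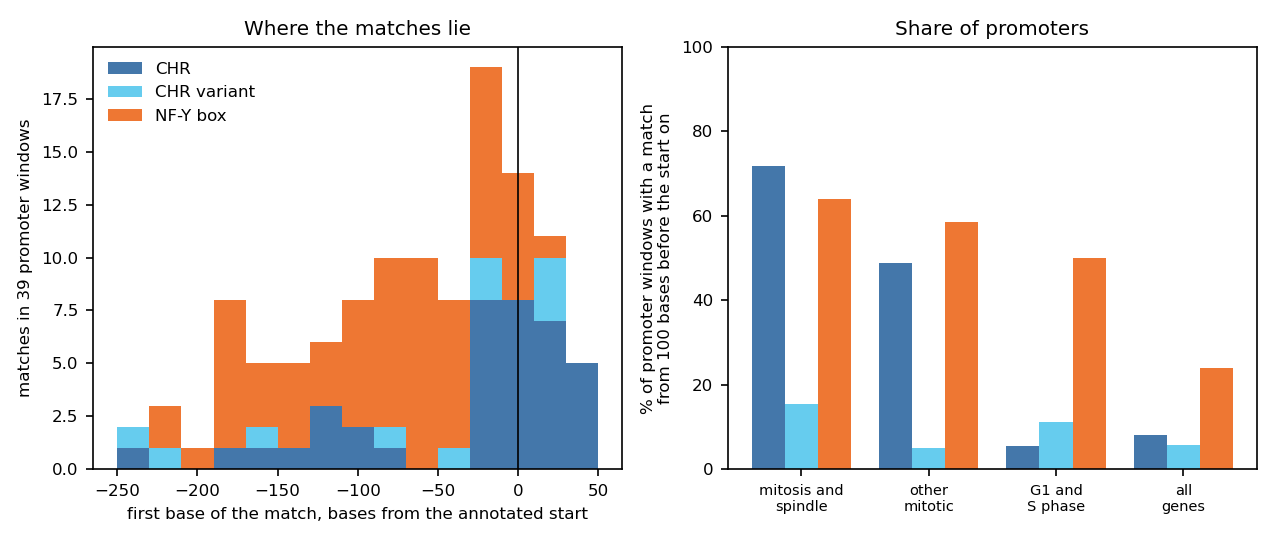
Promoter elements. Left, matches of the CHR (TTTGAA in the text), its variant (TTTAAA) and the NF-Y box (CCAAT) in the 39 promoter windows by distance of their first base from the annotated start, as stacked counts in bins of 20 bases. Right, percentage of promoter windows with a match from 100 bases before the start on, for the mitosis and spindle genes, 2 other gene lists and all 27025 windows. CHR matches gather around the start, in 71.79% of the mitosis and spindle promoters against 8.08% of all.

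Values are log2 of the background-corrected signal relative to the 75th percentile of the array, so that 0 is the level of that percentile, and a difference of 1 is a 2-fold change. Values of a group are listed for mice 1 to 5 in that order. Between 50.2% and 62.1% of probes on an array were well above background, and precision is limited by there being 5 arrays per group. There were 6 slides and 4 days of scanning. Water mice 1, 2 and 4 shared slide 1. Slide 2 carried filgotinib mice 1 and 2 beside DSS vehicle mice 1, 4 and 5. Filgotinib mice 4 and 5 shared slide 3, and DSS vehicle mouse 2 shared slide 4 with water mice 3 and 5. DSS vehicle mouse 3 and filgotinib mouse 3 each had a slide and a scan day of their own.

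The first comparison asks what repeated DSS injury did to the mitotic genes of the mucosa. All 46 were lower in DSS vehicle mice than in water mice at an adjusted p under 0.05 in limma, against 8.42% of all genes called lower and 10.8% called higher. The median log2 fold change of the 46 was -1.31 and the range -1.91 for Kif15 to -0.33 for Smc4, while the median of all genes was 0.05. Kif15 was not well above background in 3 of the DSS vehicle mice and Kif2c (-1.87) in 2, so their values rest partly on background signal, and among the 44 genes above background on every array the fall of Aurkb (-1.78) was the largest. At an unadjusted p under 0.05 all 46 were lower, against 13.9% of all genes. Of the 46 genes, 38 fell at least 2-fold (2.18% of all genes did), 6 between 1.5-fold and 2-fold, and Smc4 and Incenp less than 1.5-fold. For 37 of the 46 every DSS vehicle mouse lay below every water mouse, a pattern found in 6.2% of all genes.

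The fall was carried by all 5 DSS vehicle mice, to unequal extents. Taking each gene relative to its water mean, the median over the 46 genes was -1.40, -2.09, -0.65, -1.06 and -1.40 in DSS vehicle mice 1 to 5. Mouse 2 had the lowest value of all 15 arrays for all 46 genes. Mouse 3 had the highest value of its group for 45 genes, and it lay below every water mouse for 37 of the 46, while mice 1, 2, 4 and 5 lay below every water mouse for all 46. Among water mice the medians were -0.07, 0.31, -0.41, 0.14 and 0.01, and mouse 3 was the lowest of its group for all 46 genes. The lowest mouse of each of these groups, DSS vehicle mouse 2 and water mouse 3, lay on slide 4. Water mouse 5, at 0.01, lay on the same slide. The part of the slide in these positions was not tested. Without DSS vehicle mouse 2 alone, 44 genes were called lower, with a median of -1.11, and the calls of Kif23 and Smc4 were lost. Without DSS vehicle mouse 2 and filgotinib mouse 1, a setting chosen after seeing the data, all 46 were called lower, with the same median. Filgotinib mouse 1 is in neither group of this comparison and enters it only through the spread of the shared fit.

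**Figure D2:**
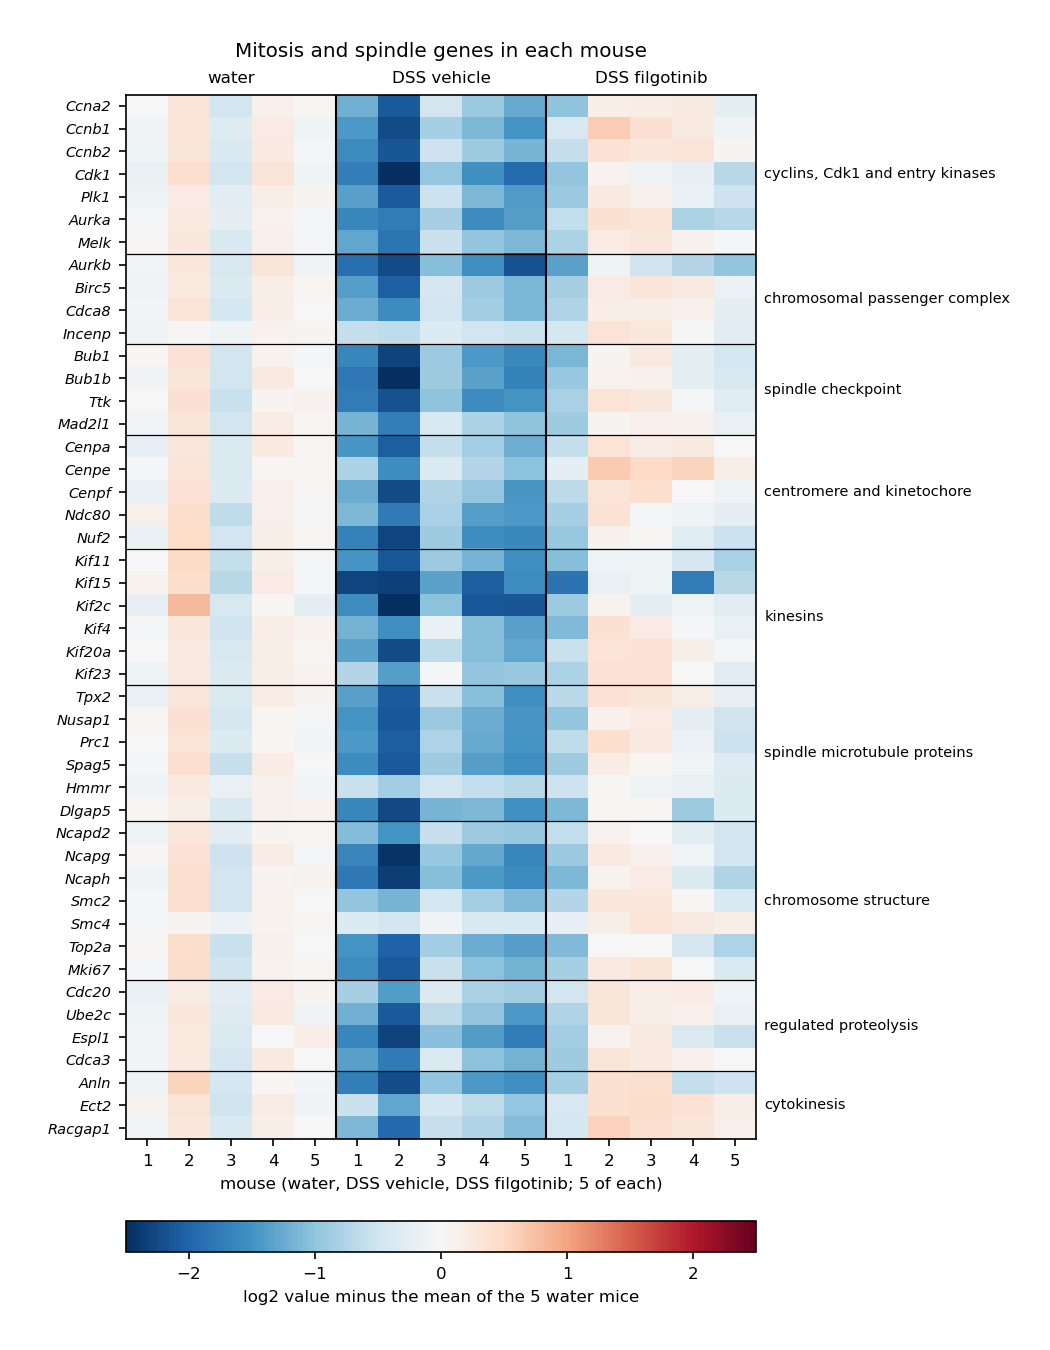
Each of the 46 genes in each mouse, as log2 value minus the mean of the 5 water mice (colour scale, blue lower and red higher), with genes in rows by role and mice in columns by group. DSS vehicle mouse 2 is the lowest of 15 for all 46 genes, and filgotinib mouse 1 is the lowest of its group for 45.

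The second comparison asks whether filgotinib changed these genes in mice that drank DSS. It uses the same 5 DSS vehicle mice as the first, so low values in them enter both the fall and the rise. The 2 results, here and gene by gene below, are not independent. Of the 46, 43 were higher in filgotinib mice than in DSS vehicle mice and none was called lower, against 6.8% of all genes called higher and 4.53% called lower. The median log2 fold change was 1.15, from 0.41 for Hmmr to 1.58 for Kif2c, while 10960 of the 22013 genes tested lay below 0. At an unadjusted p under 0.05 all 46 were higher, against 16.7% of all genes. At least a 2-fold rise was seen for 32 of the called genes, against 0.922% of all genes. Every filgotinib mouse lay above every DSS vehicle mouse for 15 of the 46 genes, against 4.87% of all genes. The 3 genes that were not called are the kinesins Kif4, Kif15 and Kif23, with log2 fold changes of 0.91, 1.0 and 0.75 and adjusted p = 0.0533, 0.079 and 0.0662. Relative to the water mean, the median over the 46 genes was -0.82, 0.22, 0.21, -0.06 and -0.29 in filgotinib mice 1 to 5. Mouse 1 was the lowest of its group for 45 of the 46 and lay below every water mouse for 44, while mice 2 to 5 did so for 0, 1, 8 and 16. Without filgotinib mouse 1 all 46 genes were called higher, with a median of 1.33.

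The third comparison sets filgotinib mice that drank DSS against water mice. It shares its groups with the first 2 comparisons, so its values stand beside theirs and are no separate support for them. None of the 46 genes was called lower or higher by limma, against 3.41% and 6.43% of all genes. At an unadjusted p under 0.05, Aurkb and Kif15 were lower, against 9.87% of all genes. The log2 fold changes had a median of -0.14 and ran from -0.92 for Kif15 to 0.33 for Cenpe, with 37 below 0 and 9 above. A p that misses the threshold does not show equal levels. The 95% intervals bound the differences: their half-width had a median of 0.54, 44 of the 46 held 0, and 43 excluded a 2-fold fall, in the fit that leaves slide and scan day out. With the scan day or the slide as a fixed block the median moved to -0.42 and -0.81, and the bounds do not cover those fits. In the fit without slide and scan day, the 3 genes whose intervals did not exclude a 2-fold fall were Kif11, Aurkb and Kif15. Their intervals in that fit were -1.04 to 0.04, -1.27 to -0.20 and -1.67 to -0.17.

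**Figure D3:**
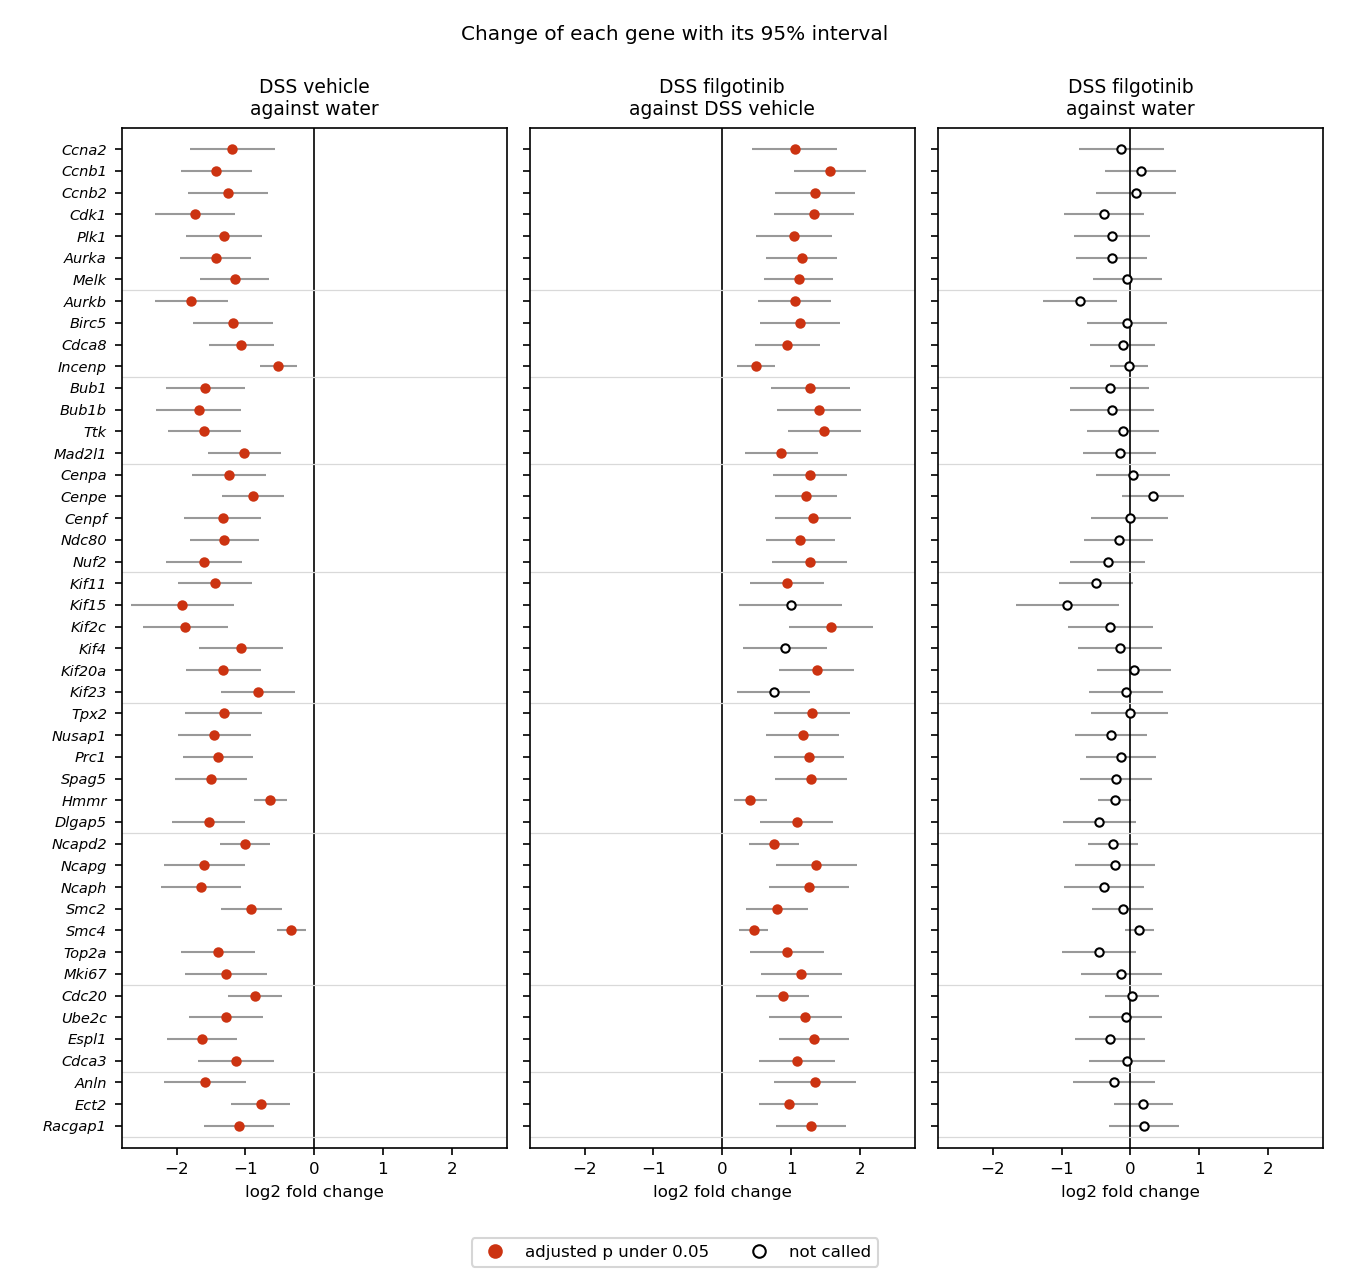
Log2 fold change of each gene in the 3 comparisons (points) with its 95% interval from limma (lines), genes in the order of their roles. Filled points have an adjusted p under 0.05: 46 in the first panel, all below 0, 43 in the second, all above 0, and none in the third.

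Entry into mitosis is driven by Cdk1 with its cyclins and by the kinases that act around it. All 7 genes of this group fell with DSS, by 1.15 to 1.73 on the log2 scale, and all 7 were higher with filgotinib than with vehicle. Cdk1, the kinase that starts mitosis, had values of -0.05, 0.55, -0.32, 0.45 and 0.03 with water, -1.60, -2.37, -0.83, -1.40 and -1.78 with DSS and vehicle, and -0.86, 0.21, 0.01, -0.08 and -0.56 with DSS and filgotinib. Every DSS vehicle mouse was below every water mouse, and filgotinib mouse 1 lay within the DSS vehicle range. Cdk1 fell by 1.73 (SE 0.27) on the log2 scale, 3.31-fold (adjusted p = 0.00117) and with filgotinib rose by 1.34 (SE 0.27), 2.53-fold (adjusted p = 0.00819). Ccnb1, which encodes cyclin B1, the partner of Cdk1, had values of 0.92, 1.32, 0.68, 1.21 and 0.91 with water, -0.42, -1.23, 0.17, -0.11 and -0.48 with DSS and vehicle, and 0.61, 1.63, 1.38, 1.23 and 0.91 with DSS and filgotinib. Every DSS vehicle mouse lay below all 10 other mice. Ccnb1 fell by 1.42 (SE 0.24) on the log2 scale, 2.68-fold (adjusted p = 0.00171) and with filgotinib rose by 1.57 (SE 0.24), 2.97-fold (adjusted p = 0.00238), the lowest adjusted p of the 46 genes in that comparison.

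Aurka, the kinase that matures centrosomes and builds a bipolar spindle, had values of 1.99, 2.27, 1.82, 2.13 and 2.00 with water, 0.42, 0.29, 1.21, 0.47 and 0.67 with DSS and vehicle, and 1.44, 2.42, 2.39, 1.25 and 1.34 with DSS and filgotinib. Here the filgotinib mice divided, mice 2 and 3 above the water range and mice 1, 4 and 5 between the other groups. Aurka fell by 1.43 (SE 0.24) on the log2 scale, 2.70-fold (adjusted p = 0.00167) and rose by 1.16 (SE 0.24), 2.23-fold (adjusted p = 0.0094) with filgotinib. Melk, a kinase of dividing cells and the member of this group that moved least with DSS, had values of 0.48, 0.72, 0.06, 0.57 and 0.40 with water, -0.85, -1.38, -0.10, -0.54 and -0.67 with DSS and vehicle, and -0.35, 0.65, 0.73, 0.55 and 0.42 with DSS and filgotinib. In Melk filgotinib mouse 1 stood alone among values that otherwise lay within or just above the water range. Melk fell by 1.15 (SE 0.23) on the log2 scale, 2.23-fold (adjusted p = 0.00453) and rose by 1.11 (SE 0.23), 2.16-fold (adjusted p = 0.00985) with filgotinib. Ccna2, Ccnb2 and Plk1, which encode cyclin A2, cyclin B2 and polo-like kinase 1, fell by 1.19, 1.26 and 1.31 with DSS and rose by 1.05, 1.34 and 1.04 with filgotinib. The call of Ccna2 with filgotinib was lost on leaving out any one of DSS vehicle mice 1, 2 and 5 or filgotinib mice 2, 3, 4 and 5, with log2 fold changes of 0.83 to 1.08 and adjusted p = 0.0532 to 0.0772. That of Plk1 was lost without DSS vehicle mouse 1 or filgotinib mouse 2, at 1.03 and 0.92.

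The chromosomal passenger complex corrects faulty attachments of chromosomes to the spindle and later guides cytokinesis. All 4 of its genes fell with DSS and rose with filgotinib. Aurkb, the kinase of the complex, had values of 0.01, 0.35, -0.32, 0.38 and 0.01 with water, -1.79, -2.15, -0.98, -1.45 and -2.10 with DSS and vehicle, and -1.25, -0.02, -0.41, -0.64 and -0.90 with DSS and filgotinib. Of the filgotinib mice, only mouse 2 lay within the water range. Aurkb fell by 1.78 (SE 0.25) on the log2 scale, 3.44-fold (adjusted p = 0.000537), the lowest adjusted p of the 46 genes there, and rose by 1.05 (SE 0.25), 2.07-fold (adjusted p = 0.0174) with filgotinib. Against water its log2 fold change in filgotinib mice was -0.73 (adjusted p = 0.0743), the lowest adjusted p of the 46 in that comparison.

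Cdca8, which encodes borealin, a targeting subunit, had values of 2.34, 2.74, 1.98, 2.58 and 2.42 with water, 1.18, 0.83, 1.94, 1.54 and 1.26 with DSS and vehicle, and 1.65, 2.57, 2.58, 2.53 and 2.17 with DSS and filgotinib. It fell by 1.06 (SE 0.22) on the log2 scale, 2.08-fold (adjusted p = 0.0053) and rose by 0.95 (SE 0.22), 1.93-fold (adjusted p = 0.0156) with filgotinib. Incenp, the scaffold of the complex, had values of 3.19, 3.29, 3.16, 3.36 and 3.33 with water, 2.67, 2.64, 2.92, 2.79 and 2.73 with DSS and vehicle, and 2.84, 3.61, 3.53, 3.22 and 3.01 with DSS and filgotinib. The changes of Incenp were small but so was its spread: no DSS vehicle mouse reached the water range. Incenp fell by 0.52 (SE 0.13) on the log2 scale, 1.43-fold (adjusted p = 0.0129) and rose by 0.49 (SE 0.13), 1.41-fold (adjusted p = 0.0253) with filgotinib, a call that was lost without DSS vehicle mouse 1, 2 or 5 or filgotinib mouse 2. Birc5, which encodes survivin, fell by 1.18 and rose by 1.13.

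**Figure D4:**
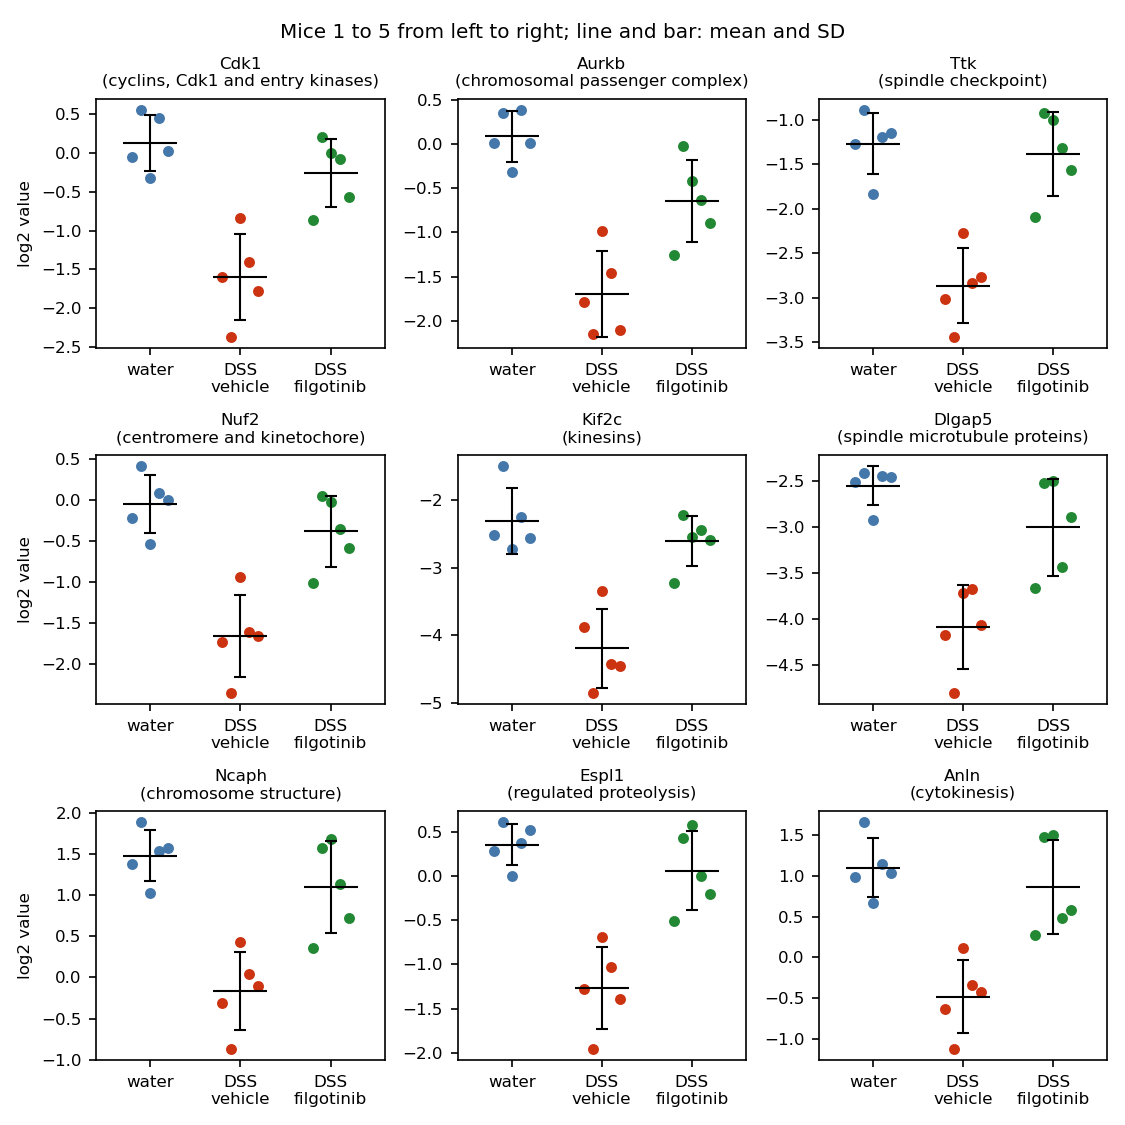
Log2 value in every mouse for the gene of each role with the lowest adjusted p in DSS vehicle against water, with the mean (line) and SD (bar) of 5 mice per group. Vertical scales differ between panels. In all 9 genes the DSS vehicle mice lie below every water mouse.

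The spindle checkpoint holds back anaphase until every chromosome is attached. All 4 of its genes fell with DSS and rose with filgotinib. Ttk, the kinase that starts the checkpoint signal, had values of -1.27, -0.89, -1.83, -1.19 and -1.15 with water, -3.01, -3.43, -2.27, -2.83 and -2.76 with DSS and vehicle, and -2.09, -0.92, -1.0, -1.32 and -1.56 with DSS and filgotinib. All filgotinib mice lay above all DSS vehicle mice. Ttk fell by 1.59 (SE 0.25) on the log2 scale, 3.02-fold (adjusted p = 0.00104) and rose by 1.48 (SE 0.25), 2.8-fold (adjusted p = 0.00334) with filgotinib. Bub1, a checkpoint kinase at the kinetochore, had values of -1.09, -0.77, -1.59, -1.05 and -1.15 with water, -2.75, -3.44, -2.04, -2.57 and -2.74 with DSS and vehicle, and -2.28, -1.06, -0.90, -1.34 and -1.56 with DSS and filgotinib. Bub1 fell by 1.58 (SE 0.27) on the log2 scale, 2.99-fold (adjusted p = 0.00171) and rose by 1.28 (SE 0.27), 2.43-fold (adjusted p = 0.00974) with filgotinib. Mad2l1, which encodes the Mad2 protein that restrains Cdc20, moved least of the 4, with values of 0.89, 1.25, 0.50, 1.15 and 0.99 with water, -0.21, -0.78, 0.58, 0.16 and -0.04 with DSS and vehicle, and 0.06, 1.03, 1.08, 1.07 and 0.77 with DSS and filgotinib. DSS vehicle mouse 3 was above water mouse 3, so the groups overlapped. Mad2l1 fell by 1.02 (SE 0.25) on the log2 scale, 2.02-fold (adjusted p = 0.012) and rose by 0.86 (SE 0.25), 1.82-fold (adjusted p = 0.039) with filgotinib. The call in filgotinib mice was lost without any one of 4 DSS vehicle mice (1, 2, 4 and 5), of 4 filgotinib mice (2, 3, 4 and 5) or without water mouse 5, with log2 fold changes of 0.68 to 0.92 and adjusted p = 0.0516 to 0.0888. Bub1b, which encodes the checkpoint protein BubR1, fell by 1.68 and rose by 1.41.

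The kinetochore couples the centromere to microtubules, and all 5 of its genes fell with DSS and rose with filgotinib. Nuf2, a subunit of the Ndc80 complex that grips microtubules, had values of -0.22, 0.41, -0.54, 0.09 and 0.00 with water, -1.73, -2.35, -0.94, -1.60 and -1.65 with DSS and vehicle, and -1.01, 0.05, -0.02, -0.36 and -0.59 with DSS and filgotinib. Nuf2 fell by 1.60 (SE 0.26) on the log2 scale, 3.04-fold (adjusted p = 0.00125) and rose by 1.27 (SE 0.26), 2.41-fold (adjusted p = 0.00788) with filgotinib. Ndc80, its partner, had values of -1.51, -1.20, -2.28, -1.52 and -1.67 with water, -2.77, -3.41, -2.45, -3.01 and -3.07 with DSS and vehicle, and -2.46, -1.28, -1.67, -1.77 and -1.87 with DSS and filgotinib. In both genes filgotinib mouse 1 lay below the water range and filgotinib mouse 2 within it. Ndc80 fell by 1.30 (SE 0.23) on the log2 scale, 2.47-fold (adjusted p = 0.00232) and rose by 1.13 (SE 0.23), 2.19-fold (adjusted p = 0.00889) with filgotinib. Cenpe, the motor that brings chromosomes to the middle of the spindle, had values of 1.54, 1.91, 1.22, 1.61 and 1.62 with water, 0.78, 0.04, 1.24, 0.85 and 0.56 with DSS and vehicle, and 1.35, 2.24, 2.08, 2.13 and 1.75 with DSS and filgotinib. Here no filgotinib mouse lay below the water range and 3 of 5 lay above it. Cenpe fell by 0.89 (SE 0.21) on the log2 scale, 1.85-fold (adjusted p = 0.0112) and rose by 1.22 (SE 0.21), 2.32-fold (adjusted p = 0.00431) with filgotinib, and its log2 fold change against water of 0.33 was the highest of the 46 (95% interval -0.13 to 0.78, adjusted p = 0.333). Cenpa, the histone of the centromere, and Cenpf, a large kinetochore protein, fell by 1.24 and 1.33 and rose by 1.28 and 1.32.

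Kinesins are motors that move along microtubules or take them apart. All 6 fell with DSS and 3 of the 6 rose with filgotinib, namely Kif2c, Kif11 and Kif20a. Kif2c, which removes tubulin from microtubule ends, had values of -2.52, -1.51, -2.72, -2.26 and -2.57 with water, -3.87, -4.85, -3.35, -4.43 and -4.45 with DSS and vehicle, and -3.22, -2.22, -2.55, -2.44 and -2.60 with DSS and filgotinib. All 5 DSS vehicle mice were below the 10 other mice, and DSS vehicle mice 2 and 5 were not well above background. Kif2c fell by 1.87 (SE 0.29) on the log2 scale, 3.66-fold (adjusted p = 0.00102) and rose by 1.58 (SE 0.29), 2.99-fold (adjusted p = 0.00495) with filgotinib. Kif11, which pushes the spindle poles apart, had values of -1.27, -0.78, -1.88, -1.13 and -1.33 with water, -2.75, -3.39, -2.19, -2.45 and -2.81 with DSS and vehicle, and -2.34, -1.38, -1.40, -1.69 and -2.09 with DSS and filgotinib. Kif11 fell by 1.44 (SE 0.25) on the log2 scale, 2.71-fold (adjusted p = 0.00198) and rose by 0.94 (SE 0.25), 1.92-fold (adjusted p = 0.0296) with filgotinib, a call lost without DSS vehicle mouse 1, 2 or 5 or filgotinib mouse 2 or 3.

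Kif23, the motor of the centralspindlin complex, changed least with DSS among the kinesins. Its values were -0.51, -0.17, -0.74, -0.24 and -0.32 with water, -1.12, -1.77, -0.43, -1.38 and -1.35 with DSS and vehicle, and -1.19, -0.02, -0.03, -0.38 and -0.68 with DSS and filgotinib. DSS vehicle mouse 3 lay within the water range. Kif23 fell by 0.81 (SE 0.25) on the log2 scale, 1.76-fold (adjusted p = 0.035), a call lost on leaving out any one of water mice 2, 4 and 5 or DSS vehicle mice 1, 2, 4 and 5. Its other 2 probes gave log2 fold changes of -0.69 and 0.02 with DSS. Kif15, which can stand in for Kif11, had the widest standard error of the 46 genes (0.35) and was not well above background in DSS vehicle mice 1, 2 and 4 and filgotinib mice 1 and 4. It fell by 1.91 with DSS (adjusted p = 0.0026). Kif20a, which carries the passenger complex to the spindle midzone, fell by 1.32 and rose by 1.37, and Kif4, a motor on chromosome arms, fell by 1.06.

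Spindle microtubule proteins bind, bundle or seed the fibres of the spindle, and all 6 fell with DSS and rose with filgotinib. Dlgap5, a protein that stabilises kinetochore fibres, had values of -2.51, -2.41, -2.93, -2.45 and -2.46 with water, -4.17, -4.80, -3.72, -3.67 and -4.06 with DSS and vehicle, and -3.67, -2.52, -2.5, -3.44 and -2.89 with DSS and filgotinib. Filgotinib mice 2, 3 and 5 lay within the water range, while mice 1 and 4 lay between it and the DSS vehicle mice. Dlgap5 fell by 1.53 (SE 0.25) on the log2 scale, 2.90-fold (adjusted p = 0.00134) and rose by 1.08 (SE 0.25), 2.12-fold (adjusted p = 0.0146) with filgotinib. Spag5, which encodes astrin, had values of -0.53, -0.08, -1.06, -0.30 and -0.48 with water, -2.07, -2.60, -1.38, -1.87 and -2.02 with DSS and vehicle, and -1.39, -0.29, -0.44, -0.55 and -0.81 with DSS and filgotinib. Spag5 fell by 1.5 (SE 0.24) on the log2 scale, 2.82-fold (adjusted p = 0.00135) and rose by 1.29 (SE 0.24), 2.44-fold (adjusted p = 0.00575) with filgotinib. Hmmr, a hyaluronan receptor that also binds the spindle, had values of 1.16, 1.5, 1.08, 1.37 and 1.19 with water, 0.71, 0.39, 0.81, 0.64 and 0.56 with DSS and vehicle, and 0.74, 1.29, 1.13, 1.07 and 0.92 with DSS and filgotinib. The DSS vehicle mice did not overlap with the water mice. Hmmr fell by 0.64 (SE 0.11) on the log2 scale, 1.55-fold (adjusted p = 0.00212) and rose by 0.41 (SE 0.11), 1.33-fold (adjusted p = 0.0334) with filgotinib, a call lost without any one of DSS vehicle mice 1, 2, 4 and 5 or filgotinib mice 2, 3, 4 and 5. The size of the change depended on the probe: the other 2 probes of Hmmr, above background on all 15 arrays, gave log2 fold changes of -1.21 and -1.40 with DSS and of 1.47 and 1.36 with filgotinib. Tpx2, the activator of Aurka on the spindle, fell by 1.32 and rose by 1.30, and Nusap1 and Prc1, which bundle microtubules, fell by 1.45 and 1.40 and rose by 1.17 and 1.26.

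Chromosome structure in mitosis depends on condensins, which fold the chromosome arms, on topoisomerase II and on Ki-67, which coats the chromosome surface. All 7 genes of this group fell with DSS and rose with filgotinib. Ncaph, a condensin subunit, had values of 1.38, 1.89, 1.03, 1.54 and 1.57 with water, -0.31, -0.87, 0.43, 0.04 and -0.11 with DSS and vehicle, and 0.36, 1.58, 1.69, 1.14 and 0.72 with DSS and filgotinib. Ncaph, whose promoter window held no match above, fell by 1.65 (SE 0.27) on the log2 scale, 3.13-fold (adjusted p = 0.00148) and rose by 1.26 (SE 0.27), 2.40-fold (adjusted p = 0.011) with filgotinib. Ncapd2, another condensin subunit, had values of 2.17, 2.58, 2.03, 2.37 and 2.35 with water, 1.21, 0.81, 1.72, 1.39 and 1.35 with DSS and vehicle, and 1.68, 2.38, 2.32, 2.02 and 1.85 with DSS and filgotinib. It fell by 1.0 (SE 0.17) on the log2 scale, 2.00-fold (adjusted p = 0.00169) and rose by 0.75 (SE 0.17), 1.68-fold (adjusted p = 0.0138) with filgotinib. With the mean of all probes above background per gene, the highest DSS log2 fold change among the 46 genes was -0.48. With its brightest probe Smc4, a core ATPase shared by both condensins, moved least of all 46 genes with DSS, at -0.33. Its values were 2.08, 2.19, 1.99, 2.21 and 2.17 with water, 1.79, 1.68, 2.05, 1.72 and 1.75 with DSS and vehicle, and 1.92, 2.27, 2.45, 2.35 and 2.30 with DSS and filgotinib. DSS vehicle mouse 3 lay within the water range, and 4 of 5 filgotinib mice lay above every water mouse with this probe. Against water its log2 fold change in filgotinib mice was 0.13, while the other 2 probes of Smc4 gave -0.44 and -0.17. Smc4 fell by 0.33 (SE 0.10) on the log2 scale, 1.26-fold (adjusted p = 0.0293), a call lost on leaving out any one of water mice 2, 4 and 5 or DSS vehicle mice 1, 2, 4 and 5, and rose by 0.46 (SE 0.10), 1.37-fold (adjusted p = 0.0101) with filgotinib. Smc2, the other core ATPase, Ncapg, Top2a and Mki67 fell by 0.91, 1.60, 1.40 and 1.28 and rose by 0.80, 1.37, 0.94 and 1.15. The calls of Smc2 and Top2a with filgotinib were lost without DSS vehicle mouse 1, 2 or 5 or filgotinib mouse 2, and that of Top2a also without filgotinib mouse 3, with log2 fold changes of 0.70 to 0.78 and 0.78 to 0.94. That of Mki67 was lost without DSS vehicle mouse 1, at 1.08.

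Exit from mitosis needs the destruction of cyclins and of the cohesin that joins sister chromatids. All 4 genes of regulated proteolysis fell with DSS and rose with filgotinib. Espl1, which encodes separase, the protease that opens cohesin, had values of 0.28, 0.61, 0.01, 0.37 and 0.52 with water, -1.27, -1.96, -0.69, -1.03 and -1.39 with DSS and vehicle, and -0.51, 0.44, 0.59, 0.01 and -0.20 with DSS and filgotinib. DSS vehicle mice were below and filgotinib mice above without overlap, although filgotinib mice 1 and 5 stayed below the water range. Filgotinib mouse 4, at 0.0054, lay at the lower edge of that range, which was 0.0084 in water mouse 3. Espl1 fell by 1.63 (SE 0.24) on the log2 scale, 3.09-fold (adjusted p = 0.000716) and rose by 1.33 (SE 0.24), 2.52-fold (adjusted p = 0.00457) with filgotinib. Ube2c, the ubiquitin-conjugating enzyme of the anaphase-promoting complex, had values of 2.30, 2.71, 2.10, 2.64 and 2.34 with water, 1.21, 0.31, 1.75, 1.43 and 0.98 with DSS and vehicle, and 1.66, 2.72, 2.56, 2.55 and 2.23 with DSS and filgotinib. Ube2c fell by 1.28 (SE 0.25) on the log2 scale, 2.43-fold (adjusted p = 0.00371) and rose by 1.21 (SE 0.25), 2.31-fold (adjusted p = 0.00882) with filgotinib. Cdc20, the activator of that complex, had values of 2.81, 3.17, 2.71, 3.20 and 3.06 with water, 2.16, 1.59, 2.62, 2.18 and 2.12 with DSS and vehicle, and 2.53, 3.30, 3.16, 3.20 and 2.88 with DSS and filgotinib. Filgotinib mice 2 and 4 were at or above the top of the water range. Cdc20 fell by 0.86 (SE 0.18) on the log2 scale, 1.81-fold (adjusted p = 0.00602) and rose by 0.88 (SE 0.18), 1.84-fold (adjusted p = 0.00903) with filgotinib, and Cdca3, an adaptor for destroying the mitotic inhibitor Wee1, fell by 1.14 and rose by 1.09.

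Cytokinesis splits the daughter cells, and its 3 genes fell with DSS and rose with filgotinib. Anln, which encodes anillin, a scaffold of the contractile ring, had values of 0.98, 1.66, 0.66, 1.15 and 1.03 with water, -0.63, -1.12, 0.11, -0.34 and -0.43 with DSS and vehicle, and 0.27, 1.47, 1.5, 0.49 and 0.58 with DSS and filgotinib. Anln fell by 1.58 (SE 0.28) on the log2 scale, 2.99-fold (adjusted p = 0.00207) and rose by 1.34 (SE 0.28), 2.54-fold (adjusted p = 0.00886) with filgotinib. Racgap1, the partner of Kif23 in centralspindlin, had values of 0.70, 1.03, 0.39, 0.93 and 0.79 with water, -0.36, -1.17, 0.20, 0.03 and -0.31 with DSS and vehicle, and 0.33, 1.35, 1.17, 1.08 and 0.90 with DSS and filgotinib. In Anln 3 filgotinib mice remained below the water range, whereas in Racgap1 3 were above it. Racgap1 fell by 1.09 (SE 0.24) on the log2 scale, 2.13-fold (adjusted p = 0.00705) and rose by 1.29 (SE 0.24), 2.45-fold (adjusted p = 0.00525) with filgotinib. The other 2 probes of Racgap1 were well above background on 10 of the 15 arrays each, so that their differences rest partly on background signal, and gave log2 fold changes of -2.14 and -1.77 with DSS and of -0.94 and -0.86 for filgotinib mice against water. Ect2, the exchange factor that activates RhoA at the division plane, had values of 0.72, 0.98, 0.15, 0.87 and 0.56 with water, 0.10, -0.64, 0.22, 0.02 and -0.30 with DSS and vehicle, and 0.26, 1.04, 1.1, 1.02 and 0.81 with DSS and filgotinib. DSS vehicle mouse 3 overlapped with water mouse 3, and no filgotinib mouse overlapped with the DSS vehicle mice. Ect2 fell by 0.78 (SE 0.20) on the log2 scale, 1.71-fold (adjusted p = 0.0164) and rose by 0.97 (SE 0.20), 1.96-fold (adjusted p = 0.00914) with filgotinib.

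Beside the probe used for each gene, 38 further probes of 24 of the genes passed the filter on dim signal. In DSS vehicle against water 37 of the 38 had a negative log2 fold change, as the genes did, with a median of -1.32, and the exception, a probe of Kif23 above background on all 15 arrays, had 0.02. In filgotinib against DSS vehicle all 38 were positive, with a median of 1.02. In filgotinib against water 31 were negative and the median was -0.35.

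Slides and scan days bear on these values because the groups were spread unevenly over them. On slide 4, with 1 DSS vehicle and 2 water mice, all 46 genes were lower in the DSS vehicle mouse, with a median difference of -1.88. On slide 2, with 2 filgotinib and 3 DSS vehicle mice, all 46 were higher in filgotinib mice, with a median of 1.01. No slide held both water and filgotinib mice. With the slide as a fixed block, all 46 kept their negative sign in DSS vehicle against water and Bub1b, Kif20a and Espl1, 3 of the 46, were called at an adjusted p under 0.05, where the comparison rests on the 3 arrays of slide 4 and 49 of all genes were called lower. In filgotinib against DSS vehicle all 46 stayed positive and 2, Ccnb1 and Aurka, were called, with 235 of all genes called higher. At an unadjusted p under 0.05 the slide block left 46 genes lower, against 5.85% of all genes in that fit, and 43 higher, against 14.4%. With the slide as a random block, 46 and 43 were called as before. On the first scan day alone, chosen after seeing the data, 43 of 46 genes were called lower with DSS (median -1.39, 3 mice against 3, with 4.16% of all genes called lower) and 35 higher with filgotinib (median 1.08, 4 against 3, with 6.16% of all genes called higher).

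The distance that remained between filgotinib mice and water mice differed between these settings. On the first scan day, 43 of the 46 genes were below their water mean, with a median of -0.37 and none called. With the scan day as a fixed block 44 were below it, with a median of -0.42, and Aurkb, Kif11, Kif15 and Top2a, 4 of the 46, were called lower, as were 881 of the 22013 genes tested. With the slide as a fixed block all 46 were below it, with a median of -0.81 and none called. At an unadjusted p under 0.05 in limma, 14 of the 46 were lower on the first scan day, against 9.66% of all genes. The scan day block gave 18, against 10.2%, and the slide block 4, against 2.38%. Without filgotinib mouse 1 the median was 0.04, with 22 genes below and 24 above. Without filgotinib mouse 2, Aurkb was called lower than in water mice (log2 fold change -0.89, adjusted p = 0.0405).

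Other genes of the cell cycle were described by lists that hold none of the 46. Of all genes, 8.42% were called lower and 10.8% higher with DSS, and 4.53% and 6.8% with filgotinib against vehicle. In filgotinib against water the shares were 3.41% and 6.43%. At an unadjusted p under 0.05 they were 13.9% and 20.2%, 11.6% and 16.7%, and 9.87% and 18.9%, in the same order. Of 49 other mitotic genes, 43 fell with DSS and none rose (median log2 fold change -1.21, or -1.17 with Troap, which was below background in all DSS vehicle mice, at its bound). Pbk, a kinase of dividing cells, was above background on all 15 arrays and fell at -1.97 (adjusted p = 0.000537). Fam64a at -2.52 (adjusted p = 0.000637), Kif18b at -2.25 (adjusted p = 0.000711) and Kifc1 at -2.05 (adjusted p = 0.00249) fell too, but were above background in only 4, 3 and 4 of the 5 DSS vehicle mice, so that the sizes rest partly on background signal. With filgotinib 34 of the 49 rose and none fell (median 0.99). Against water none of them was lower in filgotinib mice in limma (9 were at an unadjusted p under 0.05) and Zwint was higher (0.31 (adjusted p = 0.0399)), with a median of -0.12.

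Genes of G1 and S phase, which prepare and carry out DNA replication, also fell with DSS, 16 of 22 measured (median -0.83). The largest falls were those of the replicative helicase subunits Mcm6 at -1.92 (adjusted p = 0.00382), Mcm5 at -1.77 (adjusted p = 0.00384) and Mcm3 at -1.62 (adjusted p = 0.00856). With filgotinib none of the 22 rose in limma (3 were higher at an unadjusted p under 0.05), the median was 0.13, and Ccnd1, which encodes cyclin D1, and Cdc25a, a phosphatase that activates Cdk2, fell, at -1.1 (adjusted p = 0.00358) and -0.29 (adjusted p = 0.0454). Against water 13 of the 22 were lower in filgotinib mice and none higher (median -0.71), with Mcm6 at -1.68 (adjusted p = 0.0193) and Mcm5 at -1.5 (adjusted p = 0.0216). Relative to the water mean, the list median was -0.92, -1.11, -0.50, -0.85 and -0.84 with DSS and vehicle, and -0.93, -0.52, -0.77, -0.61 and -0.88 with DSS and filgotinib. The corresponding medians of the mitosis and spindle genes overlapped between these groups for filgotinib mouse 1 alone, while those of the G1 and S phase genes overlapped throughout. Whether the 2 lists differ in their response was not tested.

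**Figure D5:**
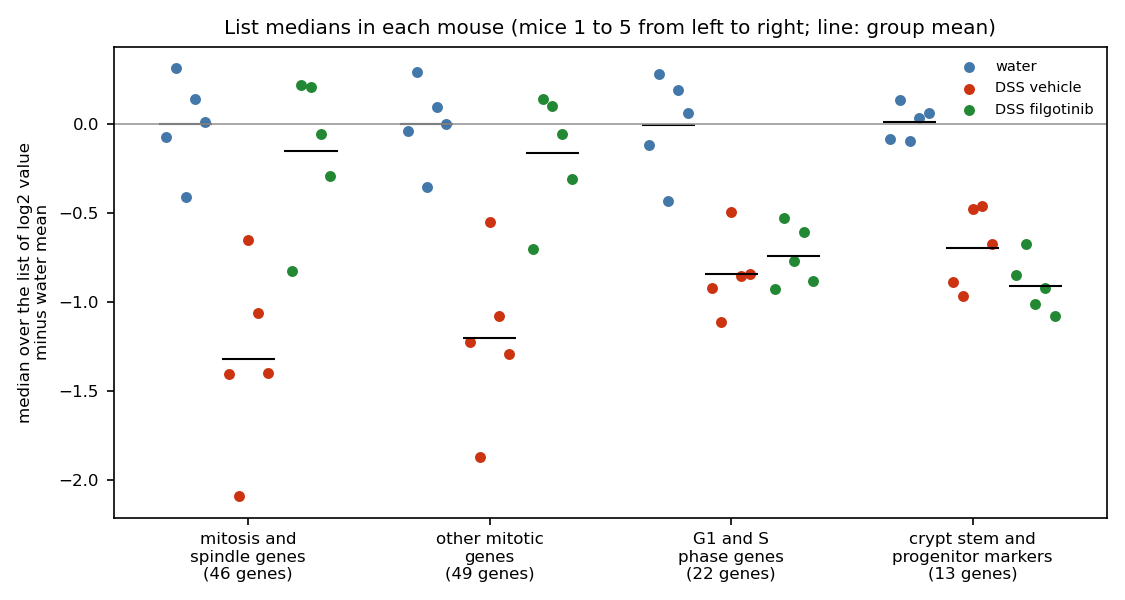
Median over each gene list of the log2 value minus the water mean, in every mouse (points) with the group mean (line). The mitosis and spindle genes and the other mitotic genes are low in DSS vehicle mice and near the water mean in filgotinib mice other than mouse 1, whereas the G1 and S phase genes and the crypt stem and progenitor markers are below the water mean in both DSS groups.

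Among 24 regulators of mitotic transcription and proteolysis, 8 fell and Nfyc rose with DSS (median -0.11), against 8.42% and 10.8% of all genes. Foxm1, the activator of late cell cycle genes, had a log2 fold change of -1.21 (adjusted p = 0.00429) with DSS and of 1.06 (adjusted p = 0.0141) with filgotinib. Fbxo5, an inhibitor of the anaphase-promoting complex, had -0.98 (adjusted p = 0.000709) and 0.57 (adjusted p = 0.0212). E2f1, an activator of S phase genes, fell with DSS at -1.23 (adjusted p = 0.0188) and was lower than water in filgotinib mice too, at -1.31 (adjusted p = 0.027). The repressors E2f7 and E2f8 fell with DSS by 1.29 and 1.52. With filgotinib, Foxm1, Fbxo5 and Lin9, a subunit of MuvB, were the 3 that rose, against 6.8% of all genes. None fell, and 2 were lower at an unadjusted p under 0.05, against 11.6% of all genes.

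Of 21 listed inhibitors of cyclin-dependent kinases and targets of p53, 19 were measured. With DSS 3 fell and 3 rose, against 8.42% and 10.8% of all genes. Cdkn1b, which encodes the inhibitor p27, rose at 0.43 (adjusted p = 0.00649) and fell with filgotinib at -0.51 (adjusted p = 0.00503). Cdkn2c, which encodes the inhibitor p18, moved the other way, at -0.93 (adjusted p = 0.00127) and 0.63 (adjusted p = 0.0174). Trp53 itself fell in both comparisons, at -0.69 (adjusted p = 0.00161) and -0.55 (adjusted p = 0.00974). Cdkn1c, which encodes the inhibitor p57, had the largest fall with DSS of the list, at -1.01 (adjusted p = 0.0033), and rose with filgotinib at 0.63 (adjusted p = 0.0495). Bbc3 and Ccng1, targets of p53, rose with DSS by 0.49 and 0.24. With filgotinib 4 of the 19 fell and 3 rose, against 4.53% and 6.8% of all genes.

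Cell type markers were read for the same mice, and their part in the results above was not tested. Their counts stand against the shares of all genes given with the cell cycle lists, 8.42% called lower and 10.8% higher with DSS. With filgotinib against vehicle the shares were 4.53% and 6.8%, or 11.6% and 16.7% at an unadjusted p under 0.05. In filgotinib against water 3.41% were called lower and 6.43% higher. Of 11 epithelial markers, 6 rose with DSS and none fell, and with filgotinib none was called in limma (1 was higher at an unadjusted p under 0.05). Against water, 4 of these markers were called higher in filgotinib mice and none lower. Their summed level, in units of the 75th percentile, ran from 1844 to 2036 in water mice, 2247 to 2404 in DSS vehicle mice and 2054 to 2374 in filgotinib mice. The summed level of the 46 mitosis and spindle genes on the same scale was 105 to 164, 41.8 to 92.1 and 82.8 to 160. Of 13 measured markers of crypt stem and progenitor cells, 7 fell with DSS, none was called with filgotinib (1 at an unadjusted p under 0.05 in the higher direction), and 9 were lower in filgotinib mice than in water mice. Lgr5, a marker of crypt base stem cells, was below background in every mouse that drank DSS and at least 9.02-fold lower in DSS vehicle mice than in water mice. It passed the filter on dim signal through the 5 water mice alone. The summed level of the stem and progenitor markers was 51.9 to 64.2 in water mice, 32.2 to 48 in DSS vehicle mice and 32.4 to 40.4 in filgotinib mice.

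Of 10 measured leukocyte markers, Cd52, Coro1a and Laptm5 rose with DSS and none fell, with summed levels of 79.5 to 90.7 in water mice, 83.5 to 116 in DSS vehicle mice and 70.7 to 94.2 in filgotinib mice. None of these 10 was called with filgotinib in limma, and 2 were lower at an unadjusted p under 0.05, against 11.6% of all genes. Among 6 measured markers of B and germinal centre cells, which can divide fast, 2 rose, Ms4a1 among them, and S1pr2 fell with DSS, and the summed levels of the list were 2.46 to 3.27, 3.50 to 5.13 and 2.35 to 5.56. Of 3 neutrophil markers S100a9 rose with DSS and fell with filgotinib. S100a9 was well above background on only 10 of the 15 arrays and S100a8 on 12, so their values rest partly on background signal. Csf3r was so on all 15. The neutrophil sums were 146 to 168, 170 to 186 and 148 to 167, and such sums weigh the brightest marker most. No marker of fibroblasts (7 measured), smooth muscle (6) or endothelium (4) was called by limma in any comparison. At an unadjusted p under 0.05, 2 fibroblast markers and 1 smooth muscle marker were higher with DSS and 2 fibroblast markers lower with filgotinib. Of all genes 20.2% were higher with DSS and 11.6% lower with filgotinib at that threshold. The fibroblast sums ranged widely within each group, from 4.10 to 26.1 in water mice, 12.5 to 66.3 in DSS vehicle mice and 2.00 to 54.3 in filgotinib mice. The smooth muscle sums were 22.8 to 30.9, 28.7 to 97.1 and 25.4 to 46.3, and the endothelium sums 1.51 to 1.91, 1.41 to 2.88 and 1.44 to 2.40.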

How the data were processed

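Colon mucosa RNA of 15 mice was hybridised to 1-colour Agilent arrays, 1 mouse per array. Probe intensity values were extracted with Agilent Feature Extraction 11.5.1.1, per the file headers and the submitters' processing notes, which also name limma. The deposited intensity column used is background-subtracted. A deposited table of log2 values by the authors, whose normalization is not given in the sources used here, served as an alternative.

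From the intensities, log2 values were taken minus the 75th percentile of each array. Control spots and spots with an outlier mark were left out. Probes well above background on at least 5 of 15 arrays were kept, and the brightest probe stood for each of 22013 genes. One limma 3.58.1 model (R 4.3.3) over the 3 groups of 5 gave moderated, two-sided tests, Benjamini-Hochberg adjusted over all genes and called at an adjusted p under 0.05. The procedure was tested on simulated data. Summaries used Python 3.11.15, pandas 2.3.3, numpy 2.4.6 and matplotlib 3.10.9.

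Values in every mouse are given for the 2 genes of each of 9 roles with the lowest adjusted p in DSS vehicle against water, for the gene of each role that changed least there, and for the 5 genes with the lowest adjusted p in filgotinib against DSS vehicle, 28 genes in all. The genes and lists were chosen with earlier results of these data known. The bound for a gene below background in a whole group sets the brighter group's mean against the lowest signal well above background on each dim array, or the gene's own where that is higher. Marker and cell cycle lists were described by counts, medians and summed levels, and the values of some single markers are not reported here. Promoter windows were from RefSeq (GRCm38.p6). Alternatives changed the background correction, scaling, probe filter, probe choice, slide, scan day and replicate numbers, and left out single mice.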

Additional observations from a re-analysis of the deposited data

Results flagged for a closer look

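Among 138 groups of 5 mice, 46 genes in 3 groups, 3 held a mouse far from the other 4 by Dixon's criterion at 95%, where chance alone gives about 1 in 20. Melk was low in filgotinib mouse 1, at -0.35 on the log2 scale against 0.42 to 0.73 in the other filgotinib mice. Cdca3 was low in the same mouse, at 0.54 against 1.42 to 1.74. Dlgap5 was low in water mouse 3, at -2.93 against -2.51 to -2.41 in the other water mice. No cause was tested.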

How the results depend on the processing

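No gene reversed a called direction under any alternative. The share of all genes called also changed with the setting and is given beside the counts. For DSS vehicle against water, the count of lower genes was 46 (8.42% of all genes), and 44 to 46 on leaving out single mice (5.95% to 9.12%). It was 45 with the replicate number as a block (7.14%), 44 without the filter on dim probes (3.92%) and 45 with normexp correction (9.51%). With the deposited table, median scaling or quantile normalization it was 46 (9.92%, 7.12% and 9.4%). The count higher with filgotinib than with vehicle was 43 (6.8% of all genes), and 34 to 46 on leaving out single mice (3.59% to 8.36%). The lowest count was without DSS vehicle mouse 1 (3.59%). It was 38 with the replicate block (4.22%), 36 without the filter (1.86%) and 30 when only the compared groups were fitted (3.43%). With the slide as a fixed block these counts were 3 and 2 (0.223% and 1.07% of all genes), a fit that rests on slide 4 and on slide 2. Without the 3 arrays of slide 4 they were 42 and 32 (4.8% and 3.89%). In filgotinib against water the count lower was 0 (3.41% of all genes) and 0 to 1 on leaving out single mice (1.39% to 4.4%). It was 4 with the scan day as a fixed block (4%) and 0 with the replicate block (1.48%). The labels do not say that the replicate numbers pair the mice. The deviations of same-numbered mice from their group means correlated at -0.515 to 0.532 with mixed signs, which cannot decide whether they do. Kif15 was not well above background in 5 mice and Kif2c in 2, which limits their values.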
